A study of Mus musculus with 6 samples.

Results

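Sites of the splicing regulator PTBP2 were searched for places where FLAG-tagged PTBP1 was listed only when the Ptbp2 gene could be deleted. A gained site was a stacked FLAG-PTBP1 site of Rosa-PTBP1; PTBP2 loxp/loxp; Emx1-Cre cortex that overlapped, on the same strand, a stacked PTBP2 site of wild-type cortex and no interval of FLAG-PTBP1 in Rosa-PTBP1; Emx1-cre cortex. An interval is the stretch of genome covered by a listed read, counted once however often it was listed. A site is a run of overlapping or touching intervals, and stacked means 5 or more distinct intervals. The rule was applied to chromosomes 1 to 9 and 11 to 19 and found 448 gained sites. They were 448 of the 16112 stacked FLAG sites of loxP cortex there, and of the 55683 stacked sites listed over all libraries of the series. The members were thus chosen by the intervals listed in these 3 libraries, and the values of the 3 on the sites are given as a description, which supports nothing.

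PTBP1 and PTBP2 are closely related proteins that bind pyrimidine-rich stretches of RNA, mostly in introns, and repress or activate nearby exons. PTBP1 is made in neural progenitors and non-neuronal cells, and PTBP2 takes its place when neurons are born. The swap releases a set of neuronal exons, because PTBP1 represses many exons more strongly than PTBP2 does. Crosslinking and immunoprecipitation (CLIP) joins a protein to the RNA it touches with ultraviolet light, pulls the protein down with an antibody and sequences the RNA fragments that come with it.

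The cortices came from BL6/129Sv mice on postnatal day 1, and nuclear RNA was crosslinked at 400 mJ/cm2. FLAG-PTBP1 was pulled down from Rosa-PTBP1; Emx1-cre cortex (1 library, here Rosa-PTBP1 cortex) and from Rosa-PTBP1; PTBP2 loxp/loxp; Emx1-Cre cortex (1 library, here loxP cortex). PTBP2 was pulled down from wild-type cortex (1 library) and from Rosa-PTBP1; Emx1-cre cortex (1 library). FLAG antibody on wild-type cortex, which has no FLAG-PTBP1, gave the background (2 libraries, replicates 1 and 2). Both FLAG-PTBP1 groups share the transgene and the recombinase and differ by the loxP alleles. Emx1-cre acts in the dorsal forebrain lineage, so cells of other lineages in the dissected cortex keep their alleles. PTBP2 in loxP cortex was not analysed here, so how much protein was lost is not known from these libraries. In such bulk tissue, fewer cells of a type and less RNA per cell cannot be told apart.

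On these chromosomes loxP cortex held 243507 distinct FLAG intervals and Rosa-PTBP1 cortex 344255, both from run WA047. Runs are given here as the codes in the read names. Wild-type PTBP2 held 141053 and Rosa-PTBP1 PTBP2 66040, from runs XA041 and XB028. Wild-type FLAG replicate 1 held 81214, from the runs of the PTBP2 libraries, and replicate 2 held 24877, from the run of the FLAG-PTBP1 libraries. PTBP2 in Rosa-PTBP1 cortex listed few sites on chromosomes 5 to 9 (121 to 229 each) and 657 on chromosome 4, or 2.90% of its sites where the median of the other libraries was 6.34%. Therefore its values are also given for the 12 chromosomes of the rule that are filled in every library. With 1 library in each group but wild-type FLAG there is no test between groups, and the intervals printed are exact Clopper-Pearson 95% intervals that cover counting error only.

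The gained sites made up a small part of the places where both proteins were listed. Of 4776 stacked FLAG sites of loxP cortex on a stacked PTBP2 site, 448 held no interval of FLAG in Rosa-PTBP1 cortex, which is 9.38% (8.57 to 10.2) and is what the rule selects. The other 4328, called shared sites, held at least 1. The same rule turned round gave more sites. Of 5546 stacked FLAG sites of Rosa-PTBP1 cortex on a stacked PTBP2 site, 917 held no FLAG interval of loxP cortex, or 16.5% (15.6 to 17.5); these are called reverse sites. The Rosa-PTBP1 list is the longer by intervals, so it was also thinned to the 243507 intervals of the loxP list, in 1 random draw. There were then 482 gained sites (10.1% of 4776) against 668 reverse sites (13.5% of 4954). Sites listed for FLAG-PTBP1 in only 1 of these genotypes were thus found in both directions, and the loxP library did not hold the greater number. Seen from PTBP2, 4197 of its 8866 stacked wild-type sites (47.3%) overlapped stacked FLAG sites of both cortices. A further 414 (4.67%) overlapped a stacked FLAG site in loxP cortex and no interval in Rosa-PTBP1 cortex, 914 (10.3%) showed the reverse pattern, and 1919 (21.6%) held no FLAG interval of either.

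Most gained sites were small. They held a median of 7 FLAG intervals in loxP cortex (quartiles 6 and 9, range 5 to 88) and 6 PTBP2 intervals in wild type (quartiles 5 and 8, range 1 to 45), over a median of 65 bases (range 34 to 333). Shared sites held medians of 14 and 10 intervals over 92 bases. Of the gained sites 339 held 5 to 9 FLAG intervals, 95 held 10 to 19 and 14 held 20 or more. At the threshold, 103 members held exactly 5, and 90 further sites with 4 would otherwise have met the rule. On the other edge, 88 stacked FLAG sites of loxP cortex on PTBP2 held 1 FLAG interval of Rosa-PTBP1 cortex, with a median of 7 in loxP cortex, and 72 held 2.

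The share of sites listed in 1 FLAG library alone fell with the size of the stack, in both directions. This is partly fixed by the rule, which asks for no interval of the other library anywhere on the site. A wider site meets that less easily, and width was not matched between the classes. Among FLAG sites of loxP cortex on PTBP2, 19.6% (17.7 to 21.5) of those with 5 to 9 intervals lacked an interval in Rosa-PTBP1 cortex. This was 6.16% (5.02 to 7.48) at 10 to 19 intervals and 1.23% (0.654 to 2.09) at 20 to 49. At 50 or more it was 1 of 442 sites. In the reverse direction the shares were 34.9%, 14.0% and 3.08%, and 0 of 536 sites, which allows up to 0.560% as 3 counts and 0.686% as the exact upper limit.

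**Figure D1:**
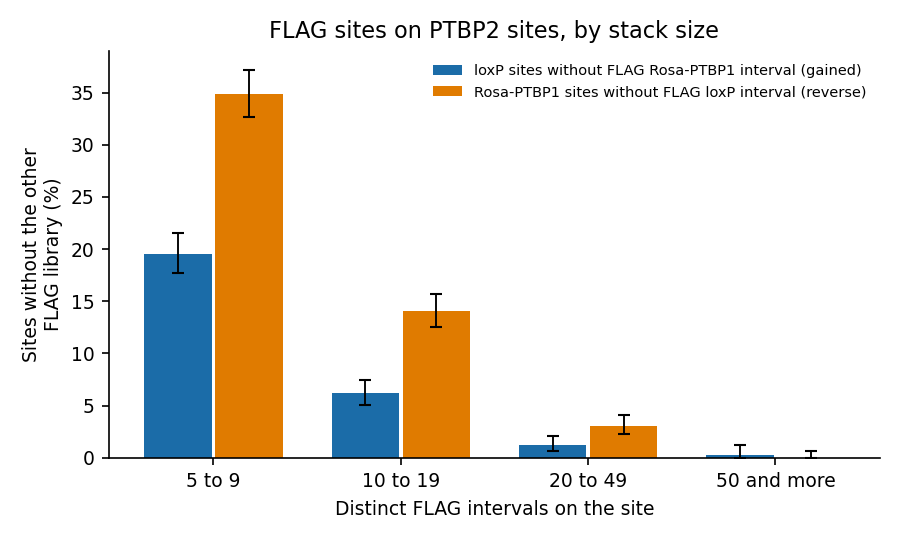
Share of stacked FLAG-PTBP1 sites on stacked PTBP2 sites (y axis, percent) that held no interval of the other FLAG library, by the distinct FLAG intervals on the site (x axis); bars are shares and error bars exact 95% intervals. Blue bars (gained sites, loxP cortex) fall from 19.6% to 1 of 442 sites, and orange bars (reverse sites, Rosa-PTBP1 cortex) from 34.9% to 0 of 536. The fall is partly fixed by the rule, as site width was not matched between the classes.

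The gained site with most FLAG intervals lay on chr19:5802264-5802372, minus strand (mm9). It held 88 FLAG intervals in loxP cortex, 0 in Rosa-PTBP1 cortex, 10 of PTBP2 in wild type and 22 of PTBP2 in Rosa-PTBP1 cortex, and 0 in either wild-type FLAG replicate. It was the only gained site with 50 or more FLAG intervals. Both PTBP2 libraries, one of them from Rosa-PTBP1 cortex, listed RNA at a place where FLAG in Rosa-PTBP1 cortex listed none. The RNA around it was listed in every library. At chr19:5800753-5801013 on the same strand, loxP cortex held 481 FLAG intervals (0.181% of its list), and the matching site held 526 (0.150%) in Rosa-PTBP1 cortex and 374 (0.241%) in wild-type PTBP2. FLAG in wild-type replicate 2 held 462 intervals at that neighbour, or 1.73% of its list, and replicate 1 held 40, or 0.0453%. The background replicates thus lay on either side of FLAG-PTBP1 there. A further loxP site at chr19:5801742-5801826 held 56 FLAG intervals, with 0 in Rosa-PTBP1 cortex, 0 in wild-type PTBP2 and 5 in wild-type FLAG replicate 2. The nearest FLAG interval of Rosa-PTBP1 cortex to the gained site lay 1256 bases away.

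The site on chr3:80509275-80509371, minus strand, was the one where all of PTBP2 and FLAG in loxP cortex were high together. It held 43 FLAG intervals in loxP cortex, 45 of PTBP2 in wild type and 58 of PTBP2 in Rosa-PTBP1 cortex, against 0 in the remaining 3 libraries. It ranked first among gained sites for PTBP2 in both genotypes. The deepest points of FLAG and wild-type PTBP2 lay 1.5 bases apart, with 43 intervals stacked in each. FLAG in Rosa-PTBP1 cortex was not absent from the surroundings, since it held 69 intervals within 500 bases, the nearest 26 bases away; FLAG in loxP cortex held 148 in that flank outside the site.

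The sites ranked 2, 3 and 5 by FLAG lay on chromosomes 4 and 5, which are sparsely filled for PTBP2 in Rosa-PTBP1 cortex, so little can be read from its value of 0 there. The site on chr4:77685283-77685591, minus strand, held 48 FLAG intervals in loxP cortex and 15 of PTBP2 in wild type, and 0 in the other libraries. These were spread over 309 bases, with 10 intervals stacked at the deepest FLAG point. FLAG in Rosa-PTBP1 cortex came within 35 bases of it, with 63 intervals in 500 bases. On chr5:81792411-81792743, plus strand, there were 47 FLAG intervals in loxP cortex, 30 of PTBP2 in wild type and 2 in wild-type FLAG replicate 1, and 0 elsewhere. This was the widest gained site, at 333 bases, and it spanned 3 stacked PTBP2 sites. It stood alone, with no FLAG interval of either cortex in the 500 bases on each side. On chr5:49519588-49519807, minus strand, 34 FLAG intervals in loxP cortex met 14 of PTBP2 in wild type. FLAG in Rosa-PTBP1 cortex lay 210 bases from this site, with 19 intervals in 500 bases. The deepest FLAG and PTBP2 points lay 103 and 100.5 bases apart at the chromosome 5 sites, so there the peaks of the proteins did not coincide.

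The remaining sites of the first 10 by FLAG held between 20 and 26 FLAG intervals. At chr17:86967726-86967849, plus strand, 26 FLAG intervals met 5 of PTBP2 in wild type. FLAG in Rosa-PTBP1 cortex came within 65 bases there, with 16 intervals in 500 bases. At chr6:61922131-61922343, plus strand, 22 met 12, and FLAG in Rosa-PTBP1 cortex came within 9 bases, with 114 intervals in 500 bases; PTBP2 in Rosa-PTBP1 cortex is sparse on this chromosome too. At chr13:92881782-92881969, minus strand, 21 met 13, and 7 of PTBP2 were held in Rosa-PTBP1 cortex. That PTBP2 site also held 7 FLAG intervals of Rosa-PTBP1 cortex outside the gained part, so the PTBP2 site as a whole was not free of FLAG there. At chr14:35886307-35886392, plus strand, 21 met 8, with 1 of PTBP2 in Rosa-PTBP1 cortex, and at chr1:17141880-17141973, plus strand, 20 met 14. FLAG in Rosa-PTBP1 cortex came within 44 bases of the chromosome 14 site, with 68 intervals in 500 bases. For the chromosome 1 site it came within 74 bases, with 26. None of these 5 sites held an interval of wild-type FLAG.

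**Figure D2:**
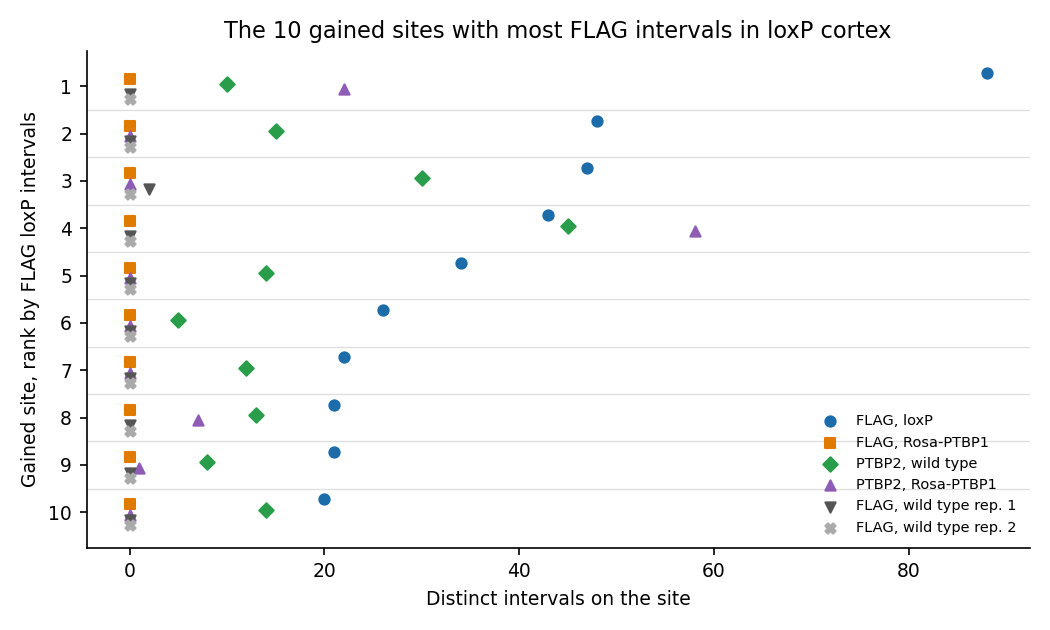
Distinct intervals (x axis) of each of the 6 libraries on the 10 gained sites with most FLAG intervals in loxP cortex (y axis, rank 1 at the top), 1 point per library. FLAG in loxP cortex runs from 88 down to 20, FLAG in Rosa-PTBP1 cortex is at 0 by the rule, and wild-type FLAG rises above 0 only at rank 3, with 2 intervals.

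Among sites ranked by wild-type PTBP2, a neighbouring pair on chromosome 1 stood in a stretch without FLAG in Rosa-PTBP1 cortex. On the minus strand, chr1:68588573-68588674 held 27 PTBP2 intervals in wild type, 31 of PTBP2 in Rosa-PTBP1 cortex and 15 of FLAG in loxP cortex. Next to it, chr1:68588683-68588769 held 22, 13 and 7. Both held 0 in wild-type FLAG, and the nearest FLAG interval of Rosa-PTBP1 cortex was 51232 and 51137 bases away. A like site, chr1:54143527-54143593 on the minus strand, held 16 PTBP2 intervals in wild type, 14 in Rosa-PTBP1 cortex and 8 of FLAG in loxP cortex, with FLAG in Rosa-PTBP1 cortex 48613 bases away. At these 3 places PTBP2 was listed with and without the transgene.

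Other PTBP2-rich gained sites lay close to FLAG in Rosa-PTBP1 cortex. The site chr6:37156688-37156774, minus strand, held 19 PTBP2 intervals and 8 of FLAG in loxP cortex, but its PTBP2 site also took 20 FLAG intervals of Rosa-PTBP1 cortex beyond the gained part. At chr5:126033866-126033953, plus strand, with 17 and 6, that number was 55. The site chr5:148293631-148293720, plus strand, held 18 and 9, and chr15:91897187-91897251, plus strand, held 18 and 5 with 7 of PTBP2 in Rosa-PTBP1 cortex. At chr1:179140635-179140690, minus strand, 17 PTBP2 intervals met 8 of FLAG and 1 of wild-type FLAG replicate 1. Over all 448 members, 373 lay on PTBP2 sites that held no FLAG interval of Rosa-PTBP1 cortex anywhere. In all, 449 PTBP2 sites underlay the members, and 73 of them held FLAG of Rosa-PTBP1 cortex elsewhere.

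PTBP2 in Rosa-PTBP1 cortex was not used to choose the sites and was set beside them. On the 12 filled chromosomes 104 of 302 gained sites, 34.4% (29.1 to 40.1), held such an interval, where 56.4% of all stacked FLAG sites of loxP cortex on PTBP2 did. Reverse sites gave 33.1% (29.4 to 37.0) and shared sites 58.8% (57.0 to 60.7). Over all chromosomes of the rule it was 107 of 448, 23.9% (20.01 to 28.1), where the background was 38.8%. Gained sites lay below shared sites beyond counting error, and their difference from reverse sites was within it. With 5 or more PTBP2 intervals of Rosa-PTBP1 cortex asked for, it was 46 of 448 gained sites (10.3%), 11.2% of reverse sites and 28.7% of shared sites, where the background was 27%. On filled chromosomes these were 14.9% (11.1 to 19.4), 15.6% (12.8 to 18.7) and 41.7% (39.9 to 43.6).

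These shares moved with the amount of PTBP2 in wild type. Among sites on filled chromosomes with 5 to 9 wild-type PTBP2 intervals, 30.6% (24.6 to 37.2) of gained, 28.3% (24.2 to 32.7) of reverse and 41.9% (39.1 to 44.7) of shared sites held PTBP2 in Rosa-PTBP1 cortex. With 10 to 19 they were 61.9% (45.6 to 76.4), 58.3% (47.8 to 68.3) and 64.5% (61.2 to 67.8), and the intervals overlapped. With 20 or more, 3 of 3 gained sites, 10 of 14 reverse sites (71.4%, 41.9 to 91.6) and 93.3% (90.9 to 95.1) of shared sites held it. With 1 to 4 the shares were 21.1% (9.55 to 37.3), 20.6% (11.5 to 32.7) and 28.3% (20.7 to 37.0), and these intervals overlapped too. The distance between gained and shared sites was thus seen at 5 to 9 PTBP2 intervals. It was not detectable at 1 to 4 with 38 gained sites or at 10 to 19 with 42. Site width and FLAG intervals were not matched within these classes.

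**Figure D3:**
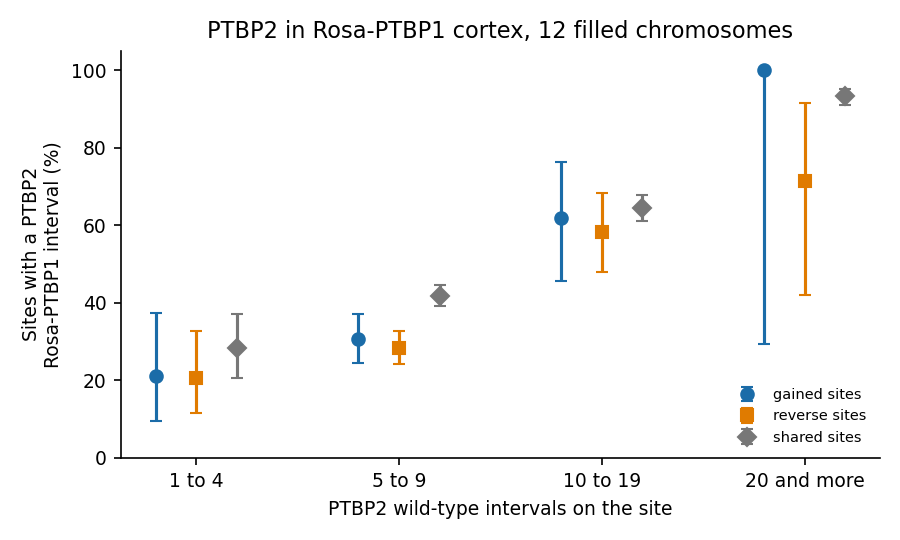
Share of sites with a PTBP2 interval in Rosa-PTBP1 cortex (y axis, percent) by the number of wild-type PTBP2 intervals on the site (x axis), on 12 filled chromosomes; points are shares and bars exact 95% intervals. Gained (blue) and reverse (orange) sites overlap in every class, and both lie below shared sites (grey) at 5 to 9 intervals, at 30.6%, 28.3% and 41.9%.

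The sites with most PTBP2 in Rosa-PTBP1 cortex included several with little FLAG. At chr17:10427114-10427196, minus strand, there were 22 PTBP2 intervals in Rosa-PTBP1 cortex, 14 of PTBP2 in wild type and 6 of FLAG in loxP cortex, with 1 in wild-type FLAG replicate 1. At chr3:55967750-55967845, minus strand, 21 and 13 of PTBP2 met 17 of FLAG, and the PTBP2 site held 17 FLAG intervals of Rosa-PTBP1 cortex outside the gained part. At chr14:24529195-24529275, minus strand, 13 and 5 of PTBP2 met 8 of FLAG, with FLAG in Rosa-PTBP1 cortex 6605 bases away. At chr2:6746909-6746982, minus strand, each of the PTBP2 libraries and FLAG in loxP cortex held 12 intervals and wild-type FLAG replicate 1 held 3. At chr2:97329325-97329394, plus strand, 11 and 7 of PTBP2 met 5 of FLAG. On these 5 gained sites PTBP2 was listed in Rosa-PTBP1 cortex, where FLAG was not, by the rule. Apart from the chromosome 14 site, FLAG in Rosa-PTBP1 cortex lay close by. It came within 12 bases on chromosome 17, 14 on chromosome 3, and 58 and 66 on chromosome 2. Within 500 bases of these it held 65, 36, 95 and 96 intervals. Over the 107 members with PTBP2 in Rosa-PTBP1 cortex, 95 held an interval from run XA041 and 91 from XB028. For PTBP2 in wild type, 84.6% of members held an interval from XA041 and 98.9% from XB028.

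FLAG in Rosa-PTBP1 cortex was listed beside most gained sites. Of the 448, 142 (31.7%) had such an interval within 50 bases, 209 (46.7%) within 100, 323 (72.1%, 67.7 to 76.2) within 500 and 408 (91.1%) within 10000; the median distance was 110.5 bases. Reverse sites had FLAG of loxP cortex within 500 bases in 62.2% (58.9 to 65.3), with a median of 249 bases. The list measured to was longer for gained sites (344255 intervals) than for reverse sites (243507). Distances were not recomputed with the thinned list. Stacked FLAG sites of loxP cortex that lacked both FLAG in Rosa-PTBP1 cortex and a stacked PTBP2 site numbered 4684. Of these 61.0% (59.6 to 62.4) had it within 500 bases. In the 500 bases on each side gained sites held a median of 10 FLAG intervals of Rosa-PTBP1 cortex and 9 of loxP cortex. These are raw counts that were not scaled to list length. The flanks of reverse sites held a median of 5 of loxP cortex and 11 of Rosa-PTBP1 cortex.

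**Figure D4:**
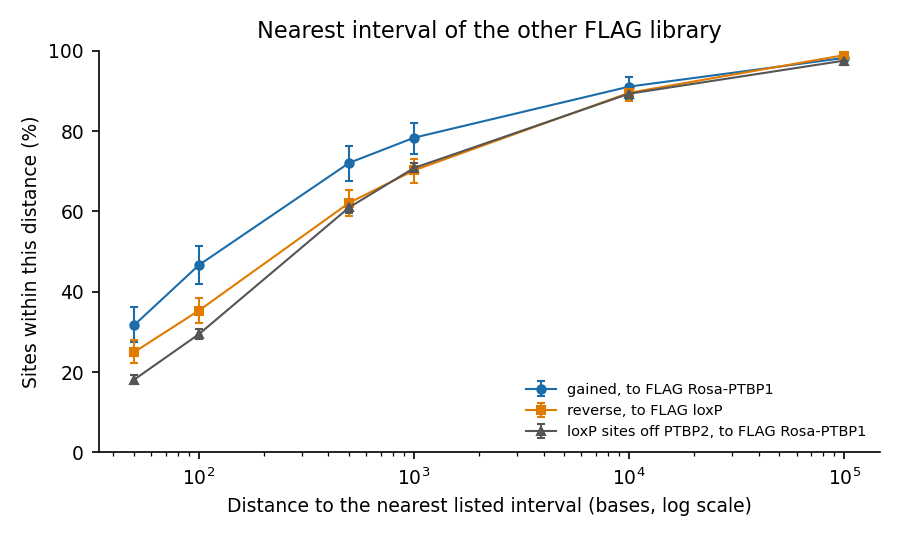
Share of sites (y axis, percent) with an interval of the other FLAG library on the same strand within a given distance (x axis, bases, log scale); bars are exact 95% intervals. Gained sites (blue) reach 72.1% at 500 bases, above reverse sites (orange, 62.2%) and FLAG sites of loxP cortex off PTBP2 (grey, 61.0%). Reverse sites are measured to a shorter list (243507 intervals) than the others (344255).

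The remaining 125 gained sites had no FLAG interval of Rosa-PTBP1 cortex within 500 bases. Of these, 81 (64.8%) also had no further FLAG interval of loxP cortex there, against 52 (16.1%) of the other 323 gained sites. The 81 were thus lone sites in loxP cortex, in stretches where FLAG in Rosa-PTBP1 cortex listed nothing. The 125 held a median of 7 FLAG intervals and 6 PTBP2 intervals, as did the other 323. On filled chromosomes 38.4% (28.1 to 49.5) of them held PTBP2 in Rosa-PTBP1 cortex, against 32.9% (26.6 to 39.6) of gained sites with FLAG of Rosa-PTBP1 cortex near, a difference within counting error.

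Of the gained sites, 8 were more than 100000 bases from any FLAG interval of Rosa-PTBP1 cortex on their strand. The farthest, chr19:18763362-18763411 on the plus strand, was 1865591 bases away and held 5 FLAG intervals of loxP cortex and 5 of PTBP2 in wild type. Within 50 kb, the site included, loxP cortex held 16 FLAG intervals, wild-type PTBP2 7, Rosa-PTBP1 FLAG 0, and wild-type FLAG replicates 1 and 2 held 10 and 4. The next, chr6:87878157-87878223 on the plus strand, was 998658 bases away and held 7 and 6. FLAG in loxP cortex and wild-type PTBP2 had no further interval in the 50 kb around it, and wild-type FLAG replicate 1 held 4 there. The site chr14:8846720-8846819, plus strand, held 11 and 8, with FLAG in Rosa-PTBP1 cortex 108148 bases away. Within 50 kb, the site included, there were 20 and 17. A stretch left out of the Rosa-PTBP1 list and an absence of FLAG-PTBP1 cannot be told apart at these places.

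The FLAG and PTBP2 peaks of the gained sites lay close together, which is partly fixed because the rule asks for overlap. The deepest point of wild-type PTBP2 lay a median of 8 bases from that of FLAG in loxP cortex, and within 20 bases at 327 of 448 sites, 73.0% (68.6 to 77.1). Reverse sites gave 74.3% (71.3 to 77.1) and shared sites 70.8% (69.5 to 72.2). Wild-type PTBP2 held 5 or more intervals on the gained part itself at 392 sites, and 10 sites rested on 1 PTBP2 interval. Intervals identical in both ends between the libraries were rare, at 71 of 3833 FLAG intervals on gained sites (1.85%) and 2.49% on shared sites. No library held an interval on the opposite strand of any gained site.

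**Figure D5:**
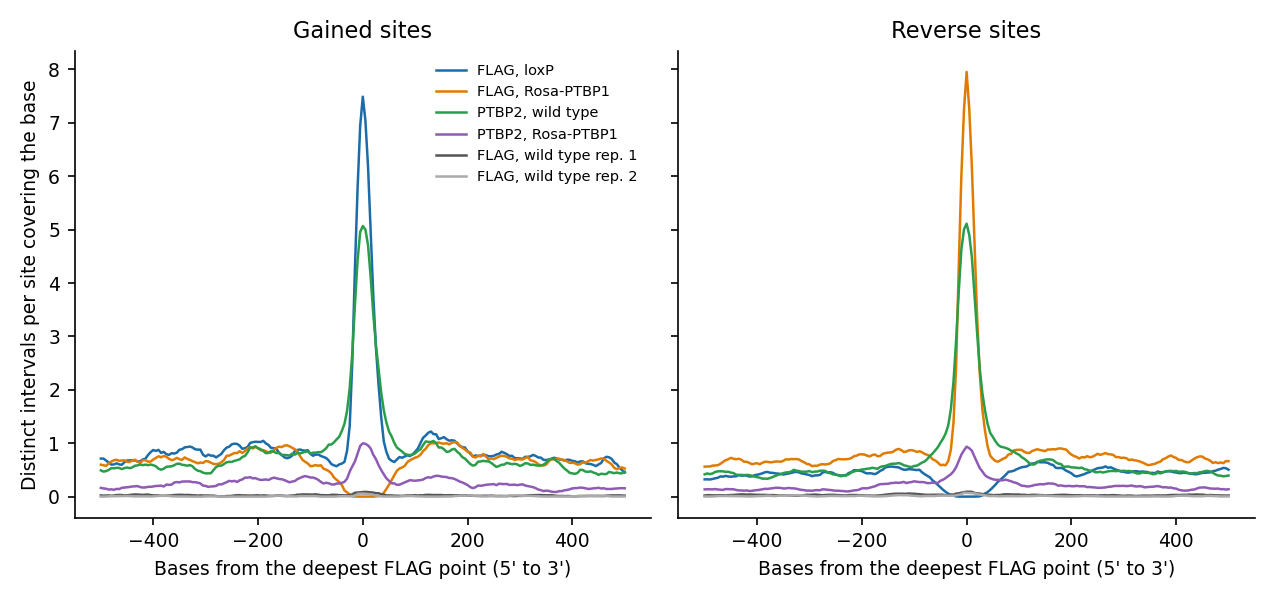
Mean number of distinct intervals covering each base (y axis) around the deepest FLAG point of gained sites (left, 448) and reverse sites (right, 917), in the direction of transcription (x axis, bases), 1 line per library. FLAG in Rosa-PTBP1 cortex is 0 at the centre of gained sites by the rule and 0.998 at 150 bases downstream, where FLAG in loxP cortex is 1.09; wild-type PTBP2 peaks at the centre of both sets, at 5.07 and 5.11.

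Wild-type FLAG, the antibody background, was listed on a smaller share of gained than of shared sites, and the difference was within counting error at 5 to 9 wild-type PTBP2 intervals. Of the 448, 44 held an interval of either wild-type FLAG library, 9.82% (7.23 to 13.0), where 15.7% of all stacked FLAG sites of loxP cortex on PTBP2 did. Replicate 1 gave 40 sites (8.93%, background 12.9%) and replicate 2 gave 5 (1.12%, background 4.61%), so replicate 1 decides the pooled value. Reverse sites gave 9.38% and shared sites 16.4%. On filled chromosomes, among sites with 5 to 9 wild-type PTBP2 intervals, it was 11.9% (7.90 to 16.9) of gained and 13.8% (11.9 to 15.8) of shared sites, a difference within counting error. There replicate 1 gave 10.5% (6.77 to 15.3) of gained and 9.97% (8.37 to 11.8) of shared sites, and replicate 2, from the run of the FLAG-PTBP1 libraries, 1.37% (0.283 to 3.95) and 4.78% (3.67 to 6.12). Few gained sites were held by more than isolated background intervals. On chr3:122242427-122242469, minus strand, wild-type FLAG replicate 2 held 10 intervals, against 9 of FLAG in loxP cortex and 8 of PTBP2 in wild type. On chr16:42305664-42305738, minus strand, replicate 1 held 8, against 9 and 6. Sites chr15:53139643-53139689 and chr15:53149278-53149344, both on the minus strand, held 5 each of replicate 2, against 5 and 6 of FLAG in loxP cortex, and chr2:105821932-105821990, minus strand, held 5 of replicate 1, against 5. At those 5 sites the FLAG antibody gave RNA without FLAG-PTBP1. Replicates 1 and 2 held 88327 and 26665 distinct intervals in all, against 265953 in loxP cortex. Counted in lines before collapsing, however, replicate 1 was the longer, with 376546 against 290897.

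The gained sites were scattered over the genome. They fell into 344 windows of 100 kb, of which 272 held 1 site, 53 held 2 and 19 held 3 or more. Chromosomes 1, 14 and 2 held the highest numbers, with 52, 48 and 41 sites. As a share of stacked FLAG sites of loxP cortex on PTBP2, they ranged from 5.25% on chromosome 4 (3.03 to 8.38) to 14.2% on chromosome 1 (10.8 to 18.3). The share of reverse sites was below that of gained sites on chromosome 8 alone, at 10.6% against 10.8%. It was above on every other chromosome of the rule.

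The 10 windows with most gained sites each held more stacked FLAG sites of Rosa-PTBP1 cortex than gained sites, and 9 of them also held reverse sites. On chromosome 2, 6 gained sites lay between 6.7 and 6.8 Mb, among 149 stacked FLAG sites of loxP cortex, 174 of Rosa-PTBP1 cortex and 141 of PTBP2 in wild type, along with 20 reverse sites. The antibody background was also high in this window, with 54 stacked sites of wild-type FLAG replicate 2 and 1 of replicate 1. Replicate 2 held at most 4 in each of the other 9 windows. On chromosome 14, the windows from 40.2 to 40.3 Mb and from 40.1 to 40.2 Mb held 5 and 4 gained sites and 7 reverse sites each. Windows with 4 gained sites on chromosome 1 lay from 126.6 to 126.7 Mb, with 2 reverse sites, and from 186.8 to 186.9 Mb, with 7. On chromosome 3 from 55.9 to 56 Mb 4 gained sites met 6 reverse sites, and on chromosome 17 from 90.8 to 90.9 Mb 4 met 3. On chromosome 14 from 124.7 to 124.8 Mb 4 met 2, and on chromosome 8 from 75.5 to 75.6 Mb 4 met 1. On chromosome 13, 4 gained sites and 0 reverse sites lay between 81.8 and 81.9 Mb. This window held 15 stacked FLAG sites of loxP cortex, 17 of Rosa-PTBP1 cortex and 19 of PTBP2 in wild type, and its gained sites were all on the plus strand. Of the gained sites, 197 lay in a window that also held a reverse site.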

How the data were processed

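CLIP of FLAG-PTBP1 and PTBP2 was read from 6 lists of read intervals. Per the labels' protocols, complexes of 80 to 110 kDa were cut out, above FLAG-PTBP1 (60 kDa) and PTBP2 (58 kDa). The authors aligned reads with Bowtie to mm9, per the submitters' processing notes, and per the file headers listed those in clusters significant at some false discovery rate; no source used here gives its level, the caller or the Bowtie version. The deposited values are genome positions with no other score, count or level, so a site listed at 0 may still have held reads. Lines were collapsed to distinct intervals, merged into sites and compared with Python 3.11.15 and SciPy 1.17.1; 1 shared base counted as overlap. The selection was tested on simulated lists. A chromosome was called filled when its share of a library's sites was at least 0.5 times the median share of the other libraries. Regions named are the 10 members with most intervals of FLAG in loxP cortex, of PTBP2 in wild type and of PTBP2 in Rosa-PTBP1 cortex, the 5 with most wild-type FLAG, and the 10 windows of 100 kb with most members; the 3 far from FLAG in Rosa-PTBP1 cortex were chosen after their values were seen. The members and lists were chosen with earlier results of these data known. The annotation at hand was of another build (GRCm38), so genes and sequences of sites were not used here.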

Additional observations from a re-analysis of the deposited data

How the results depend on the processing

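No paired analysis was possible because the wild-type FLAG libraries alone carry replicate numbers. Over 38 recomputed values, 24 stayed within 1.5 times the count reported or within its 95% interval. With stacked meaning 3 or more intervals there were 959 gained and 1680 reverse sites, 19.6% of gained sites held PTBP2 of Rosa-PTBP1 cortex and 67.7% had FLAG of Rosa-PTBP1 cortex within 500 bases. With 10 or more there were 38 and 101, and the shares were 47.4% and 84.2%, with wild-type FLAG on 5.26%. Reverse sites outnumbered gained sites in each setting run for both. On filled chromosomes alone, 34.4% held PTBP2 of Rosa-PTBP1 cortex. The share with FLAG of Rosa-PTBP1 cortex within 500 bases was 59.3% with none allowed within 50 bases, 66.0% with intervals merged across 50 bases and 66.5% with none on the whole PTBP2 site, an alternative chosen after seeing the data; the first follows from its own construction. Leaving out wild-type FLAG replicate 1 or 2 gave 1.12% to 8.93% of gained sites with wild-type FLAG. For the other moves the cause was not tested. The share of pyrimidines was not run. Each group but wild-type FLAG has 1 library, so the spread between replicates is unknown, and 339 of the 448 gained sites rest on 5 to 9 FLAG intervals.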

Other observations

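The chromosomes outside the rule gave other numbers. On chromosome X, 11 of 66 stacked FLAG sites of loxP cortex on PTBP2 held no FLAG interval of Rosa-PTBP1 cortex, and 18 of 78 sites showed the reverse. On chromosome 10 it was 334 of 339, against 1 of 6 in reverse. FLAG in Rosa-PTBP1 cortex listed 85 sites on chromosome 10 and FLAG in loxP cortex 2194, and a part left out of the list and an absence of FLAG-PTBP1 cannot be told apart there.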
